A study of Mus musculus with 12 samples.

Results

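The citric acid cycle enzymes described here are the products of 9 genes, namely Cs, Idh3a, Idh3b, Idh3g, Ogdh, Sucla2, Suclg1, Fh1 and Mdh2, out of 22923 gene symbols measured. They were taken by symbol from RNA sequencing of proximal hind limb muscle of male mice on the FVB background (FVB/N in the study's methods) at 22 weeks of age. There were 12 samples in 4 groups of 3, with each genotype, WT or KO, on each diet, normal chow or high fat (called chow-fed and fat-fed). KO mice lacked αB-crystallin (Cryab) and HspB2 (Hspb2) together and in every tissue, so the effects of either gene and of muscle or other tissues cannot be told apart in this model. The sample titles call the WT samples Flox, and the study describes them as littermates of the KO mice. All values are FPKM (fragments per kilobase of transcript, scaled to the mapped fragments of a library), a level per transcript length that the authors computed, so levels can be set beside each other between genes. Depth in reads is unknown.

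The citric acid cycle runs in the mitochondrial matrix. Acetyl-CoA from pyruvate or fatty acids is joined to oxaloacetate and oxidised stepwise, which yields NADH and FADH2 for the respiratory chain and regenerates oxaloacetate. Oxidative muscle fibres are rich in mitochondria and in these enzymes, and citrate synthase activity is a common measure of mitochondrial content in muscle.

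Cs encodes citrate synthase, the entry step. Idh3a, Idh3b and Idh3g encode the catalytic α subunit and the β and γ subunits of the NAD-dependent isocitrate dehydrogenase. Ogdh encodes the first component of the 2-oxoglutarate dehydrogenase complex. Suclg1 encodes the α subunit of succinyl-CoA synthetase, and Sucla2 the β subunit of its ADP-forming version. Fh1 encodes fumarase, and Mdh2 the mitochondrial malate dehydrogenase that regenerates oxaloacetate.

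The genes are spread over 9 chromosomes of the GRCm38 (mm10) build in the GENCODE M21 annotation. RefSeq promoter windows of 300 bases on GRCm38.p6, running from 250 bases before a transcript start to 50 bases after it, were given for 8 of the 9 genes, all but Idh3a, 13 windows in all with 6 of them of Ogdh and 1 of each other gene. These windows were searched on both strands for the core letters bound by factors known for mitochondrial genes, GCGCATGCG for NRF1, AAGGTCA for the estrogen-related receptors (ERR) and CCGGAAG for GABP. The GABP letters occurred in 2 of the 8 genes, Idh3b and Idh3g, against 8.86% of all 32851 mouse windows. The ERR letters occurred in a window of 1 gene, Ogdh, against 4.72% of all windows, and the NRF1 letters in 2 overlapping windows of the same gene, against 1.75%. The windows with GABP or ERR letters are shown so that the matches can be read in their place. The Idh3b window lies at chr2:130284402-130284701 on the minus strand, the Idh3g window at chrX:73786848-73787147 on the minus strand, and the Ogdh window at chr11:6291920-6292219 on the plus strand. Each is written 5′ to 3′ along its gene, with the matched letters or their reverse complement in capitals.
Idh3b: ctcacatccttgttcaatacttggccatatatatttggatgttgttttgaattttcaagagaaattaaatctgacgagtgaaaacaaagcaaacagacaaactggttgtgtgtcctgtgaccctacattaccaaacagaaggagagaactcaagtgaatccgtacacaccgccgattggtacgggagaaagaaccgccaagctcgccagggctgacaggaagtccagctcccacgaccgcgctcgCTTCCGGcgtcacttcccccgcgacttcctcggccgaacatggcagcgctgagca
Idh3g: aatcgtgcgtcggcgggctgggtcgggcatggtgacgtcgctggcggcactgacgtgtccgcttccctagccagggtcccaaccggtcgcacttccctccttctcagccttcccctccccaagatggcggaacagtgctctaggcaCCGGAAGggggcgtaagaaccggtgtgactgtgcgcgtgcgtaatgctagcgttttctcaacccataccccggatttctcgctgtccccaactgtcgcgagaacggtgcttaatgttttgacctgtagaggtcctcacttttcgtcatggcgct
Ogdh: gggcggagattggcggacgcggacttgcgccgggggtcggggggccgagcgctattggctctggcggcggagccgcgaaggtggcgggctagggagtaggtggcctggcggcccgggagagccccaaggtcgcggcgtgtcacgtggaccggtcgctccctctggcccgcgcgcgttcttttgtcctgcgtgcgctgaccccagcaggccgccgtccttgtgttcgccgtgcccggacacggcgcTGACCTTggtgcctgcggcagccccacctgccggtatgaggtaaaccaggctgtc
The capitals start 5 bases before the transcript start in Idh3b, 104 bases before it in Idh3g and 5 bases before it in Ogdh. A match describes the letters only.

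Before the levels, the samples themselves were compared. Cryab lay between 412 and 837 FPKM in the 6 WT samples, titled Flox, and between 0.845 and 1.75 FPKM in the 6 titled KO, and Hspb2 between 81.5 and 103 and between 0.353 and 1.92 FPKM. The genotype label of 6 samples contradicts their title, and the titles were used. Of the muscle markers, Ckm, Mb and Tnnt3 were high in every sample, Acta1 was listed at 0 in 2 samples and Myh4 at 0 in all 12, which can be a failed estimate. WT replicate 2 and KO replicates 1 and 3 on normal chow held marker RNA of B and T cells. The summed level of 4 B cell markers was 44.8 to 50.8 FPKM there against 0.187 to 5.08 FPKM in the other 9 samples, and that of 3 T cell markers 17.1 to 19.0 against 0.0954 to 0.834 FPKM. The medians and counts that involve these samples are also given without them, which leaves 1 KO and 2 WT samples on normal chow, with the lone sample assumed to vary like the other groups.

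All 9 enzymes were abundant. Each passed the filter of at least 1 FPKM in at least 3 samples with at least 1 FPKM in all 12, and their group means lay between the 96.0th and the 99.5th percentile of the 11945 genes tested. Mdh2 had the highest mean over the 12 samples, 870 FPKM (SD 212, n = 12), and Ogdh the lowest, 178 FPKM (SD 29.6), a ratio of 4.90. Cs followed Mdh2 at 462 FPKM. The subunits of isocitrate dehydrogenase came next, at 366 FPKM for Idh3a, 355 for Idh3b and 308 for Idh3g. Those of succinyl-CoA synthetase stood at 280 FPKM for Suclg1 and 267 for Sucla2, and Fh1 at 202. Most neighbours in this order kept it within each sample, but Idh3a exceeded Idh3b in only 7 of 12 samples, Suclg1 exceeded Sucla2 in 10 and Fh1 exceeded Ogdh in 11.

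The ADP-forming β subunit Sucla2 exceeded Suclg2, the β subunit of the GDP-forming enzyme, by 5.38 to 7.38 times in the 12 samples. Mdh2 exceeded its cytosolic counterpart Mdh1 by 1.60 to 2.43 times. The NADP-dependent mitochondrial enzyme Idh2 was at 0.310 to 0.784 times the level of Idh3a.

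**Figure D1:**
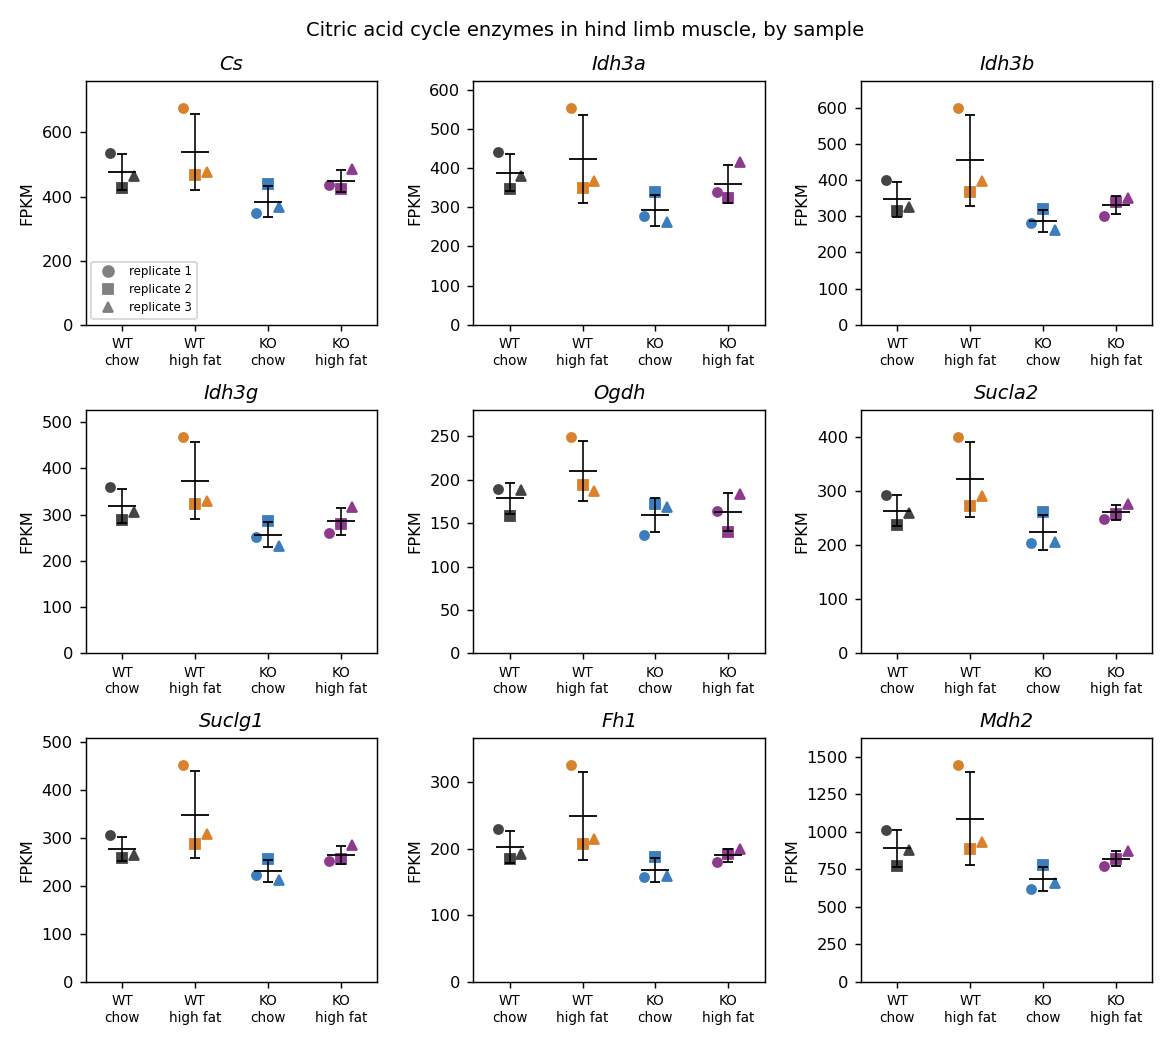
Level of each enzyme gene in FPKM (vertical axis from 0) in the 4 groups (horizontal axis), with 1 point per sample, its shape giving the replicate, and the mean ± SD of 3 samples in black. Replicate 1 of the fat-fed WT mice was the highest of the 12 samples for all 9 genes, 1444 FPKM for Mdh2 against 886 and 932 FPKM in the other samples of its group.

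Cs measured 536, 425 and 464 FPKM in chow-fed and 676, 468 and 475 FPKM in fat-fed WT mice. In KO mice Cs was at 347, 438 and 367 FPKM when chow-fed and at 435, 422 and 487 FPKM when fat-fed. The 4 groups overlapped except for the first WT sample on high fat diet, which stood above all others. Group means of Cs were 475 ± 56.1 and 540 ± 118 FPKM in WT and 384 ± 47.5 and 448 ± 34.2 FPKM in KO mice (SD, n = 3).

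Idh3a, the catalytic subunit of isocitrate dehydrogenase, was at 440, 347 and 379 FPKM in chow-fed WT mice, with all 3 KO samples lower at 278, 338 and 263 FPKM. On high fat diet it was at 553, 349 and 367 FPKM in WT and 338, 325 and 416 FPKM in KO mice, which overlapped. Idh3b showed the opposite arrangement. On normal chow the 401, 313 and 326 FPKM of WT overlapped the 280, 319 and 261 FPKM of KO mice, while on high fat diet the 598, 367 and 397 FPKM of WT all exceeded the 302, 339 and 350 FPKM of KO mice. Idh3g did not overlap between genotypes on either diet. Its values were 360, 289 and 305 FPKM in WT against 252, 285 and 233 FPKM in KO mice on normal chow, and 469, 322 and 329 FPKM against 259, 281 and 317 FPKM on high fat diet.

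Ogdh was at 189, 158 and 188 FPKM in WT and 137, 172 and 169 FPKM in KO mice on normal chow. When fat-fed, WT mice had 250, 194 and 187 FPKM, all above the 164, 140 and 184 FPKM of KO mice. Its value in KO replicate 3 on normal chow was close to the WT samples, unlike for the other 8 enzymes, where that sample was among the 2 lowest of the 12. Sucla2 was at 293, 237 and 259 FPKM in WT and 203, 261 and 206 FPKM in KO mice on normal chow, and at 400, 272 and 291 FPKM and 248, 257 and 276 FPKM on high fat diet. Both comparisons between genotypes overlapped for Sucla2. Its partner Suclg1 overlapped in neither, with 306, 259 and 265 FPKM in WT against 222, 257 and 212 FPKM in KO mice on normal chow and 452, 287 and 307 FPKM against 252, 256 and 285 FPKM on high fat diet.

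Fh1 was at 229, 185 and 192 FPKM in WT and 157, 188 and 158 FPKM in KO mice on normal chow. On high fat diet the WT values of 325, 207 and 214 FPKM all exceeded the 180, 191 and 199 FPKM of KO mice. Mdh2 showed the same arrangement, with 1014, 771 and 880 FPKM in WT and 620, 776 and 658 FPKM in KO mice on normal chow, and 1444, 886 and 932 FPKM against 771, 816 and 874 FPKM on high fat diet. For both genes the second KO sample overlapped the WT range on normal chow.

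To ask what the high fat diet did in each genotype, log2(FPKM + 1) was compared with limma across 11945 genes. In bulk tissue, fewer muscle fibres and less enzyme RNA per fibre cannot be told apart. In WT mice all 9 enzymes had a higher mean on high fat diet, and none passed an adjusted p of 0.05, where 0.1% of all genes did. With quantile normalization Cs and Idh3a had a lower mean instead. The median log2 fold change of the 9 was 0.26, against -0.01 over all genes. Idh3b had the highest value, 0.36 (SE 0.18, adjusted p = 0.64), and Idh3a the lowest, 0.10 (SE 0.18, adjusted p = 0.92). None of the 9 passed an unadjusted p of 0.05 as higher, against 4.42% of all genes, and none was free of overlap between diets, against 6.2% of all genes. Without the first high fat sample the median was 0.07, and without the 3 samples with B and T cell marker RNA it was 0.17 with no enzyme past an unadjusted p of 0.05. Scaled to the muscle genes Ckm and Tnnt3 within each sample, the median was 0.33, against 0.04 over all genes. The lowest unadjusted limma p of an enzyme was then 0.013, and the share of all genes past 0.05 under this scaling was not computed. Unscaled, Ckm was at -0.11, Tnnt3 at -0.02 and Mb, another muscle gene, at 0.73 (SE 0.24, adjusted p = 0.36).

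In KO mice all 9 enzymes again had a higher mean on high fat diet in the values as deposited, but 8 of the 9 had a lower mean when the values were scaled to Ckm and Tnnt3, as did 2 with quantile normalization and 1 with size factors. The median log2 fold change was 0.21 as deposited, against 0.03 over all genes, and -0.09 scaled, against -0.22 over all genes. The scaling genes were themselves higher on high fat diet here, Ckm at 0.24 (SE 0.18) and Tnnt3 at 0.35 (SE 0.17). None of the 9 passed an adjusted p of 0.05 (adjusted p 0.51 to 0.94), where 0% of all genes did. None passed an unadjusted p of 0.05 as higher, against 6.56% of all genes, and none was free of overlap, against 10.7%. Idh3a had the highest value in KO mice, 0.30 (SE 0.18, adjusted p = 0.51), and Ogdh the lowest, 0.03 (SE 0.15, adjusted p = 0.94). Without KO replicates 1 and 3 on normal chow, 2 of the samples with B and T cell marker RNA, the median was 0.03 and 3 of the 9 had a lower mean.

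The genotypes were then compared within each diet. On normal chow all 9 enzymes had a lower mean in KO than in WT mice in the values as deposited, while 8 of the 9 had a higher mean when scaled to Ckm and Tnnt3. The median log2 fold change was -0.27, against -0.03 over all genes, and 0.12 scaled, against 0.30 over all genes. The scaling genes were themselves lower in KO mice here, Ckm at -0.41 (SE 0.18, adjusted p = 0.30) and Tnnt3 at -0.37 (SE 0.17, adjusted p = 0.30). Mb was at -0.39 (SE 0.24, adjusted p = 0.39). No enzyme passed an adjusted p of 0.05, where 0.0586% of all genes did. Idh3a was at -0.41 (SE 0.18, 95% interval -0.81 to -0.01, adjusted p = 0.30) and was the single enzyme past an unadjusted p of 0.05, against 9.93% of all genes that were lower at that level. Ogdh was the nearest to 0, at -0.17 (SE 0.15, adjusted p = 0.53). Idh3a, Idh3g and Suclg1 did not overlap between genotypes, 3 of 9 against 10.2% of all genes. Without the 3 samples with B and T cell marker RNA the median was -0.18 and no enzyme passed an unadjusted p of 0.05. With single samples of any group left out in turn, that count ran from 0 to 6, with 6 when the first WT sample on high fat diet was left out of the shared estimate of spread.

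On high fat diet all 9 enzymes had a lower mean in KO than in WT mice, as deposited and scaled, with medians of -0.36 and -0.33 on the log2 scale. None passed an adjusted p of 0.05 (adjusted p 0.26 to 0.63), where 0.109% of all genes did. Idh3b was at -0.43 (SE 0.18, 95% interval -0.81 to -0.04, adjusted p = 0.26). Idh3b, Idh3g, Ogdh and Suclg1 passed an unadjusted p of 0.05, 4 of 9 against 6.45% of all genes that were lower at that level. The groups did not overlap for 6 of 9, Idh3b, Idh3g, Ogdh, Suclg1, Fh1 and Mdh2, against 10.7% of all genes. Without the first WT sample on high fat diet the median was -0.15 and no enzyme passed an unadjusted p of 0.05, which was also so without the first or the second KO sample on high fat diet. Over all single samples left out in turn, that count ran from 0 to 7, with 7 without the second WT sample on high fat diet, and it was 1 without the 3 samples with B and T cell marker RNA, whose spread enters the shared estimate.

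Averaged over genotypes, the diet comparison gave a median log2 fold change of 0.23, or 0.11 when scaled to Ckm and Tnnt3 and 0.03 with quantile normalization. All 9 had a higher mean under each. No enzyme passed an adjusted p of 0.05, where 0.0586% of all genes did. Idh3b, Sucla2 and Suclg1, 3 of 9, passed an unadjusted p of 0.05 as higher, against 7.96% of all genes, with values of 0.28 (SE 0.12), 0.25 (SE 0.11) and 0.25 (SE 0.11). This count ran from 0 to 5 with single samples left out in turn, and none passed without the first WT sample on high fat diet, when scaled, with quantile normalization or without the 3 samples with B and T cell marker RNA, where the median was 0.10. Averaged over diets, the genotype comparison gave a median of -0.31, or -0.10 when scaled to Ckm and Tnnt3, where the median of all genes was 0.15. All 9 enzymes had a lower mean in KO mice under both. Adjusted p lay between 0.10 for Idh3g, at -0.34 (SE 0.11), and 0.16 for Sucla2, at -0.26 (SE 0.11). So none passed an adjusted p of 0.05, where 0.862% of all genes did, while 9 of 9 passed an unadjusted p of 0.05 as lower, against 13.4% of all genes. Mdh2 had the lowest value, -0.37 (SE 0.13, 95% interval -0.65 to -0.09, adjusted p = 0.11). The unadjusted count ran from 4 without the first WT sample on normal chow to 9 with single samples left out in turn, and was 0 without the 3 samples with B and T cell marker RNA, where the median was -0.26, or when scaled to Ckm and Tnnt3. The 9 genes varied together from sample to sample, so such counts do not stand for 9 separate observations.

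The diet response was not shown to differ between genotypes for any enzyme. The interaction, the log2 fold change on high fat diet in KO minus that in WT mice, had a median of -0.06 over the 9, with adjusted p of 0.91 to 1.0, and 0% of all genes passed. Ogdh was the lowest at -0.20 (SE 0.21, 95% interval -0.66 to 0.27) and Idh3a the highest at 0.20 (SE 0.26, 95% interval -0.37 to 0.77). As deposited 6 of the 9 were below 0 and none passed an unadjusted p of 0.05. Scaled to Ckm and Tnnt3 all 9, Idh3a included, were below 0, with a median of -0.41 against -0.28 over all genes. The lowest unadjusted limma p of an enzyme was then 0.017 and the lowest adjusted p 0.55. The share of all genes past an unadjusted p of 0.05 under this scaling was not computed. Without the 3 samples with B and T cell marker RNA 8 of the 9 were below 0, with a median of -0.20 and none past an unadjusted p of 0.05.

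**Figure D2:**
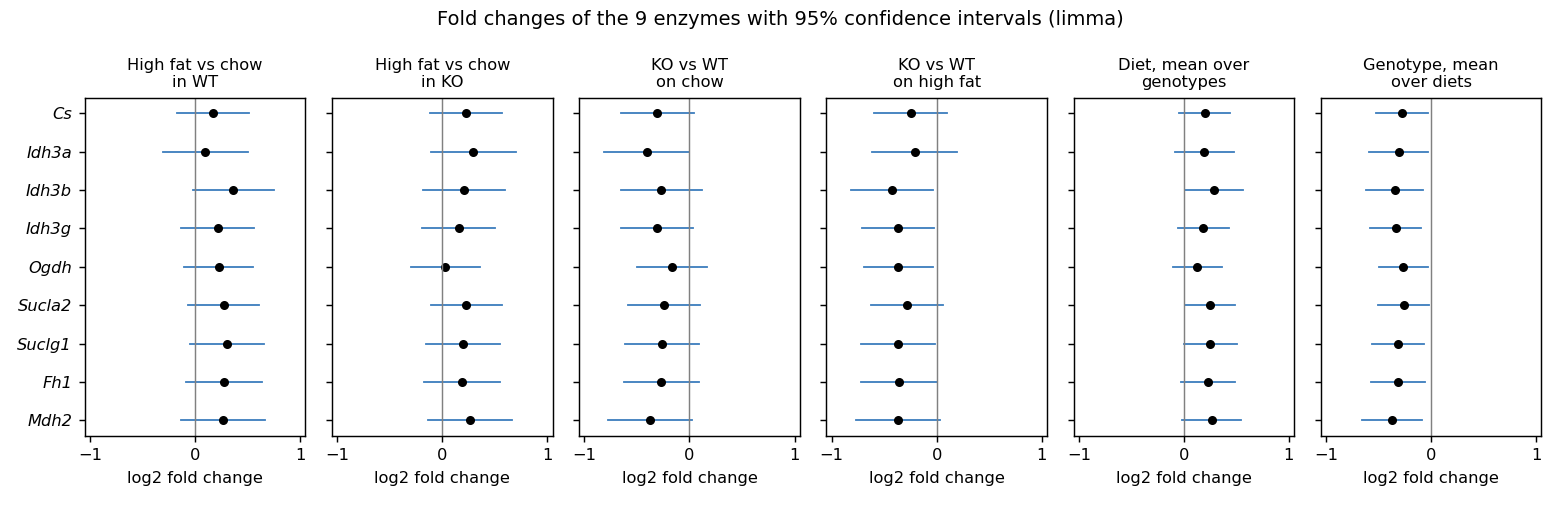
Log2 fold change of log2(FPKM + 1) (horizontal axis) for each enzyme (vertical axis) in 6 comparisons, with points for the limma estimate and lines for its 95% confidence interval. The medians run from -0.36 for genotype in fat-fed mice to 0.26 for diet in WT mice, and when scaled to Ckm and Tnnt3 the median turned from 0.21 to -0.09 for diet in KO mice and from -0.27 to 0.12 for genotype on normal chow.

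The spread between samples of 1 group was large and shared by the 9 enzymes. Within-group differences held 40.4% (Suclg1) to 52.1% (Idh3a) of the variance of the log2 values. In the first WT sample on high fat diet the enzymes stood at 141% to 169% of their own mean over 12 samples. In the first KO sample on normal chow they stood at 71.2% to 81.6%, and this sample was among the 2 lowest for all 9. The ratio of highest to lowest sample ran from 1.83 for Ogdh to 2.33 for Mdh2.

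Pearson's r of the log2 values over the 12 samples lay between 0.80 and 0.99 for the 36 pairs of enzymes, with a median of 0.97, and Spearman's rho between 0.78 and 0.99. Without the first WT sample on high fat diet and the first KO sample on normal chow, r lay between 0.46 and 0.98, with a median of 0.93. For deviations from the group means, the median r was 0.96 (range 0.62 to 0.99), so the enzymes also varied together within groups. The 8 lowest values of r over 12 samples were the 8 pairs with Ogdh. The points of each pair share their library and its normalization. Correlations between pairs of other genes were not computed.

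Genes most like the 9 were sought outside the 9 and the pathway genes listed below. By Pearson's r with the mean of the 9 enzymes' standardised log2 values over 12 samples, they were Ndufs1, Tmem70, Atp5b, Slc25a4 and Ndufv1, each with r = 0.99. Ndufs1 and Ndufv1 encode subunits of respiratory complex I, Atp5b the β subunit of ATP synthase and Slc25a4 the ADP/ATP carrier of the inner membrane. Tmem70 encodes an assembly factor of ATP synthase. By the same r over all genes tested, Idh3a had rank 94 and Ogdh rank 616, although both are part of the mean. Many genes outside the 9 thus followed this mean more closely than Ogdh did. Ndufs1 was at 287 FPKM in the first WT sample on high fat diet and at 186 and 198 FPKM in the other samples of that group. Its lowest value, 134 FPKM, was in the first KO sample on normal chow, as for Cs, Ogdh, Sucla2, Fh1 and Mdh2.

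**Figure D3:**
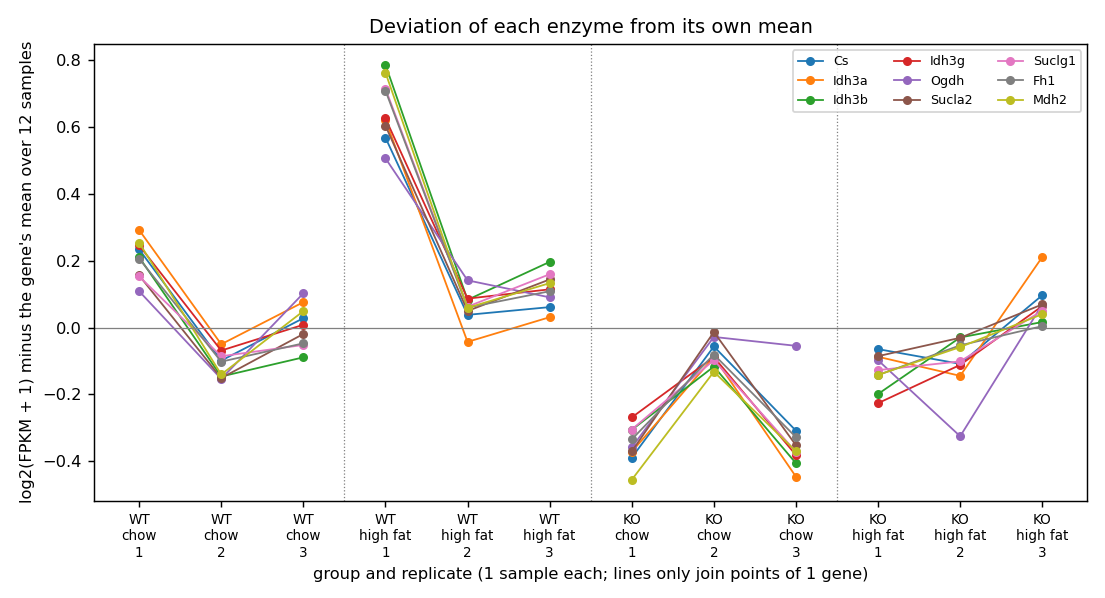
Deviation of each enzyme's log2(FPKM + 1) from its own mean over 12 samples (vertical axis, log2 units) in each sample (horizontal axis), with 1 colour per gene. The 9 enzymes move together, and replicate 1 of the fat-fed WT mice stands at 141% to 169% of the mean FPKM of each gene.

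Markers of other tissue also varied between samples. The summed level of 4 white adipocyte markers was lowest, at 3.13 FPKM, in the first WT sample on high fat diet, where all 9 enzymes were highest. It was highest, at 517 FPKM, in the first KO sample on normal chow, and was 43.3 to 260 FPKM in chow-fed WT, 3.13 to 270 FPKM in fat-fed WT, 238 to 517 FPKM in chow-fed KO and 288 to 408 FPKM in fat-fed KO mice. Samples between these extremes did not all keep an inverse order. The third KO sample on high fat diet had an adipocyte sum of 408 FPKM and an enzyme sum of 3389 FPKM. The second WT sample on normal chow had 260 and 2984 FPKM. None of the 4 adipocyte markers was at 0 in any sample. The 2 brown adipocyte markers summed to 46.0 FPKM in the second WT sample and to 57.3, 13.2 and 52.0 FPKM in the KO samples on normal chow, and to at most 2.69 FPKM elsewhere.

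On high fat diet, where 6 enzymes did not overlap between genotypes, neither did the summed macrophage, tendon and white adipocyte markers or the fast fibre myosin Myh1. The adipocyte sums were 288 to 408 FPKM in KO and 3.13 to 270 FPKM in WT mice, but Adipoq and Plin1 singly overlapped. Myh1 was at 397 to 570 FPKM in KO and 752 to 1393 FPKM in WT mice. The adipocyte sums and Myh1 overlapped on normal chow. On high fat diet the 3 macrophage markers summed to 40.6 to 77.3 FPKM in KO and 8.27 to 23.7 FPKM in WT mice. On normal chow they summed to 32.3 to 47.0 and 21.4 to 32.0 FPKM. The KO sums were thus above the WT sums in every sample of either diet, by a narrow margin on normal chow. Of the single macrophage markers, Csf1r alone did not overlap on normal chow. Cd68 overlapped there, at 10.4 FPKM in the second KO sample and 12.4 FPKM in the second WT sample. Emr1 overlapped in the same samples, at 3.32 and 3.37 FPKM. On high fat diet none of the 3 macrophage markers overlapped. The 3 tendon markers summed to 24.4 to 108 FPKM in fat-fed KO and 150 to 280 FPKM in fat-fed WT mice, without overlap, and overlapped on normal chow at 11.8 to 48.7 and 11.1 to 55.6 FPKM. Fmod made up most of the fat-fed WT sums, at 124 to 247 FPKM. Scx overlapped on high fat diet, at 4.38 to 7.26 FPKM in KO and 6.06 to 8.89 FPKM in WT mice, while Fmod and Tnmd did not. None of these 6 macrophage and tendon markers was at 0 in any sample.

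Muscle genes varied too. Ckm, the muscle creatine kinase, was at 15178 and 13276 FPKM in KO replicates 1 and 3 on normal chow, which held the lowest sums of the 9 enzymes (2496 and 2528 FPKM), and at 17661 to 25896 FPKM in the other 10. The first WT sample on high fat diet, with a sum of 5167 FPKM, was not the highest for Ckm (21895 FPKM). It was the highest for myoglobin, Mb (6173 FPKM, other samples 1552 to 3894), and for the fast fibre myosin Myh1 (1393 FPKM, other samples 397 to 828). Its 4 slow and oxidative fibre markers summed to 236 FPKM, the lowest of the 12. The part of adipose, lymphoid, macrophage, tendon or fibre type composition in the enzyme differences was not tested.

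**Figure D4:**
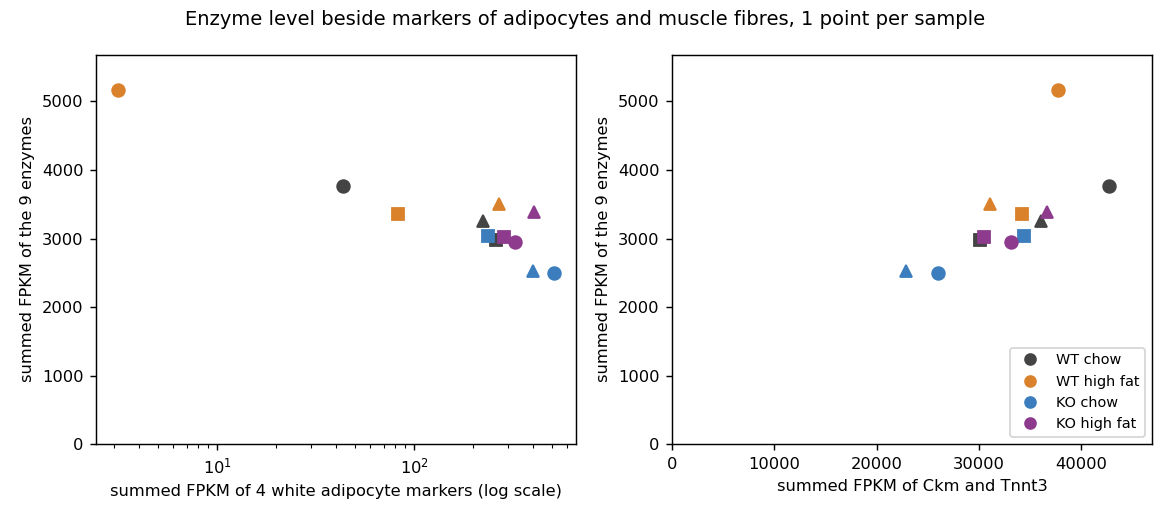
Summed FPKM of the 9 enzymes (vertical axes, from 0) against the summed FPKM of 4 white adipocyte markers (left, log scale) and of Ckm and Tnnt3 (right), with 1 point per sample, coloured by group and shaped by replicate as in the plot of levels by sample. The sample with the highest enzyme sum, 5167 FPKM, has the lowest adipocyte sum, 3.13 FPKM, and the 2 samples with the lowest enzyme sums, 2496 and 2528 FPKM, have the lowest muscle sums. Samples between the extremes of the adipocyte sum do not all keep an inverse order.

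Ratios between subunits of 1 enzyme were also compared, each within a sample. These ratios, 4 in all with 28 exact two-sided permutation tests, were chosen after the values had been seen. The Idh3a to Idh3b ratio was 1.10, 1.11 and 1.16 in chow-fed and 0.925, 0.950 and 0.925 in fat-fed WT mice. Each WT sample on high fat diet was thus below each WT sample on normal chow, a log2 difference of -0.27 (SE 0.03, exact permutation p = 0.1, the smallest that 3 against 3 samples allow, adjusted p = 0.28). In KO mice the ratio was 0.991, 1.06 and 1.01 when chow-fed and 1.12, 0.958 and 1.19 when fat-fed, which overlapped (log2 difference 0.09, SE 0.10, exact permutation p = 0.4). The difference between these responses, 0.36 on the log2 scale, had an exact permutation p of 0.02 and an adjusted p of 0.19. Diet was permuted within each genotype there, which tests the absence of any diet response in both genotypes rather than equal responses. Without the 3 samples with B and T cell marker RNA the differences were -0.28 in WT and 0.04 in KO mice. No ratio passed an adjusted p of 0.05 in any of the 28 tests.

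The Idh3a to Idh3g ratio lay between 1.08 and 1.31 and that of Idh3b to Idh3g between 1.07 and 1.28, so Idh3g was the lowest of the 3 subunits in all 12 samples. The Idh3b to Idh3g ratio was 1.11, 1.08 and 1.07 in chow-fed and 1.28, 1.14 and 1.21 in fat-fed WT mice, without overlap (log2 difference 0.15, SE 0.05, exact permutation p = 0.1, adjusted p = 0.28). Averaged over genotypes this difference was 0.10 (exact permutation p = 0.02, adjusted p = 0.19), and 0.10 also without the 3 samples. The Sucla2 to Suclg1 ratio stayed between 0.886 and 1.01. On high fat diet it was higher in each KO than in each WT sample (log2 difference 0.09, SE 0.04, exact permutation p = 0.1, the smallest possible, adjusted p = 0.28), and within either genotype or on normal chow the groups overlapped. Exons of Idh3b and of its neighbour Nop56 on the opposite strand share 5 bp in the annotation, and no other enzyme shares exon sequence with another gene there.

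**Figure D5:**
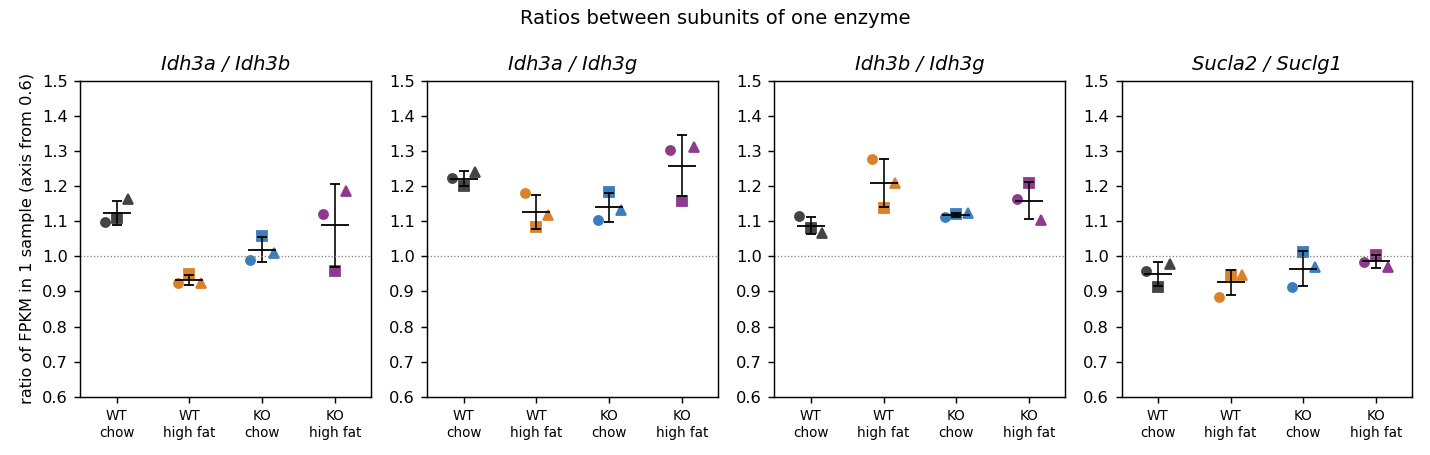
Ratio of FPKM between subunits within 1 sample (vertical axis, from 0.6 to 1.5) in the 4 groups (horizontal axis), with 1 point per sample, shaped by replicate, and the mean ± SD of 3 samples in black. The Idh3a to Idh3b ratio lies at 1.10 to 1.16 in chow-fed and at 0.925 to 0.950 in fat-fed WT mice.

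The rest of the pathway was read from 36 listed genes, all of which passed the filter. Among them 1 gene passed an adjusted p of 0.05 in any of the 7 comparisons, in that of genotype averaged over diets where 0.862% of all genes did. This was Sdhd, a membrane anchor of succinate dehydrogenase. Sdhd was at 336, 284 and 296 FPKM in WT and 198, 227 and 225 FPKM in KO mice on normal chow, and at 488, 325 and 333 FPKM against 225, 244 and 261 FPKM on high fat diet. All 6 KO samples were thus below all 6 WT samples. Averaged over diets, Sdhd fell by 0.56 on the log2 scale in KO mice (SE 0.11, adjusted p = 0.046). The call was lost with the replicate number as a block (adjusted p = 0.080), without the filter (0.074) and when scaled to Ckm and Tnnt3 (-0.35, adjusted p = 0.15). Leaving out single samples gave an adjusted p between 0.034 and 0.13, and leaving out the 3 samples with B and T cell marker RNA gave 0.34. Sdhd lies at chr9:50596357-50603812 on the minus strand, 155 kb from the start of the deleted Cryab. Idh3a is on the same chromosome, 3835 kb from Cryab.

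The 8 listed cycle enzymes outside the 9 members were Dlst, Dld, Sdha, Sdhb, Sdhc, Sdhd, Suclg2 and Idh2. Averaged over diets all 8 had a lower mean in KO mice, with a median log2 fold change of -0.27 against -0.02 over all genes, and 6 passed an unadjusted p of 0.05, against 13.4% of all genes that were lower at that level. Without the 3 samples with B and T cell marker RNA the median was -0.22 and 2 passed. Scaled to Ckm and Tnnt3, 6 of these 8 had a lower mean and the median was -0.05, and with quantile normalization 7 had. In fat-fed against chow-fed WT mice all 8 had a higher mean, also with quantile normalization, and the median as deposited was 0.27. Idh2 had the highest value of these, 0.65 (SE 0.18, adjusted p = 0.22). It ordered the chow-fed samples of either genotype as Cs did, but did not follow the 9 enzymes in fat-fed WT mice. It was at 171, 274 and 232 FPKM in fat-fed WT mice, lowest in the sample where they were highest, against 165, 128 and 131 FPKM in chow-fed WT mice.

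Of 13 genes of pyruvate entry, Pdk4, the kinase that inactivates pyruvate dehydrogenase, was at 111, 106 and 96.5 FPKM in chow-fed and 316, 399 and 183 FPKM in fat-fed WT mice, without overlap (log2 fold change 1.44, SE 0.33, adjusted p = 0.14). In KO mice it was at 136, 251 and 348 FPKM when chow-fed and 261, 186 and 208 FPKM when fat-fed, which overlapped. The interaction was -1.52 (SE 0.47, adjusted p = 0.62), and -1.67 (SE 0.48, adjusted p = 1.0) without the 3 samples with B and T cell marker RNA. Pdp1, a phosphatase that reactivates pyruvate dehydrogenase, had the highest diet value in KO mice, 0.57 (SE 0.14, adjusted p = 0.27), followed by Sdhc, the other membrane anchor of succinate dehydrogenase, at 0.26 (SE 0.15, adjusted p = 0.50). Pdpr, a regulator of this phosphatase, was at -0.96 with a wide spread (SE 0.83, adjusted p = 0.62). Without the 3 samples these values in KO mice were 0.33 for Pdp1, 0.04 for Sdhc and -1.60 for Pdpr.

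Among 9 genes that fill and drain the cycle, the citrate carrier Slc25a1 and the dicarboxylate carrier Slc25a10 had the highest values in KO against WT mice on either diet. Slc25a1 was at 7.03, 22.2 and 21.1 FPKM in WT and 47.6, 29.0 and 91.7 FPKM in KO mice on normal chow (log2 fold change 1.68, SE 0.54, adjusted p = 0.28), or 1.17 (SE 0.75, adjusted p = 1.0) without the 3 samples with B and T cell marker RNA. On high fat diet it was at 3.04, 8.13 and 13.9 FPKM in WT and 21.3, 27.5 and 29.6 FPKM in KO mice (1.72, SE 0.54, adjusted p = 0.15). Their order of genotypes was opposite to that of the 9 enzymes, and the lowest Slc25a1 value of each diet was in the WT sample with the lowest white adipocyte sum. Acly, which splits citrate in the cytosol, was at 8.21, 19.1 and 16.9 FPKM in chow-fed and 6.12, 7.91 and 8.27 FPKM in fat-fed WT mice (log2 fold change -0.83, SE 0.37, adjusted p = 0.59). In KO mice Acly was at 22.9, 12.7 and 41.6 FPKM when chow-fed and 10.6, 10.7 and 9.98 FPKM when fat-fed (-1.08, SE 0.37, adjusted p = 0.42). Without the 3 samples its diet values were -0.62 in WT and -0.26 in KO mice. The cytosolic aspartate aminotransferase Got1 was at -0.58 in KO against WT mice on high fat diet (SE 0.22, adjusted p = 0.21), and the mitochondrial malic enzyme Me3 at -0.40 on normal chow (SE 0.19, adjusted p = 0.31), or -0.17 without the 3 samples. Me1, the cytosolic malic enzyme, had the highest interaction, 0.40 (SE 0.22, adjusted p = 0.86).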

How the data were processed

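Samples were grouped by title. The authors deposited 1 FPKM value per gene symbol and sample. The submitters' processing notes name TopHat2 2.0.8b, Cuffdiff 2.1.1 and the build mm10, without their settings, and the unit was read from the values and these tools. The files held 23179 entries for 22923 symbols, and of repeated symbols the one with the highest mean was kept. Genes with at least 1 FPKM in at least 3 samples were tested as log2(FPKM + 1), a scale that understates changes of low genes, with limma 3.58.1 in R 4.3.3, an intensity trend, 4 group means and 8 residual degrees of freedom. Benjamini-Hochberg adjustment ran over all 11945 genes, and the threshold was 0.05. The script was tested on simulated data. Other values were computed in Python 3.11.15.

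The members and lists were chosen with earlier results of these data known. Named genes were the 9 members, Cryab and Hspb2, of 36 listed pathway genes (1 further listed gene is not reported here) those past the threshold or else those with the 2 highest and 2 lowest values in a comparison, and the 5 most alike genes. Levels of Suclg2, Mdh1 and Idh2 beside members, and the ratios between subunits, were chosen after the values were seen.

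Totals per sample lay between 484182 and 691621 FPKM without Mir324, whose own value was far above this range in 1 sample. Relative depth, from the steps of low values, differed by at most 1.36 times. No files were identical, and the study calls its 3 samples per group independent. If they are not separate animals, p-values measure technical spread. Replicate numbers come from the titles. For diet in WT mice, the deviations of same-numbered samples had r of 0.39, -0.09 and 0.22 for replicates 1, 2 and 3. In the other comparisons within a diet or genotype r ran from -0.81 to 0.02. As same-numbered samples did not consistently deviate together, no pairing was used.

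Alternatives were a pseudocount of 0.1, no filter, a block for replicate number, a fit of only the groups compared, the genotype label, size factors, quantile normalization, robust moderation and leaving out each sample. Scaling to Ckm and Tnnt3 and leaving out 3 samples with B and T cell marker RNA were added after the data were seen.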

Additional observations from a re-analysis of the deposited data

Results flagged for a closer look

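For 2 subunit ratios, both with Idh3a and both chosen after the values were seen, the difference in diet response between genotypes had an unadjusted p under the threshold, and neither passed after adjustment over 28 tests. Diet was permuted within each genotype, which tests the absence of any diet response, so a difference between the genotypes was not shown. For Idh3a to Idh3b the log2 difference on high fat diet in KO minus that in WT mice was 0.36 (exact permutation p = 0.02, adjusted p = 0.19). For Idh3a to Idh3g it was 0.26 (exact permutation p = 0.015, adjusted p = 0.19), with ratios of 1.22, 1.20 and 1.24 in chow-fed WT, 1.18, 1.08 and 1.12 in fat-fed WT, 1.10, 1.18 and 1.13 in chow-fed KO and 1.30, 1.16 and 1.31 in fat-fed KO mice.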

How the results depend on the processing

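No enzyme passed an adjusted p of 0.05 in any of 151 further fits over the 7 comparisons, where the lowest adjusted p of any enzyme was 0.060. Of 1359 values of single enzymes in these fits, 87 lay on the other side of 0, 51 of them with the genotype label or the muscle scaling. Grouped by the genotype label, which contradicts the titles and the Cryab level of 6 samples, the median log2 fold change of the enzymes was -0.048 for diet in WT, 0.43 for diet in KO, 0.35 for genotype on high fat diet, 0.089 for genotype averaged over diets and 0.49 for the interaction, and Sdhd was at 0.068. Scaled to Ckm and Tnnt3, the median was -0.089 for diet in KO, 0.12 for genotype on normal chow, -0.10 for genotype averaged over diets and -0.41 for the interaction, where the median of all genes was -0.28. The cause of these shifts was not tested.

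Leaving out each sample in turn, with the samples left in a group assumed to vary like those of the other groups, gave medians of 0.07 to 0.38 for diet in WT, 0.14 to 0.29 for diet in KO, -0.36 to -0.19 for genotype on normal chow, -0.46 to -0.15 for genotype on high fat diet, 0.12 to 0.29 for diet averaged, -0.37 to -0.21 for genotype averaged and -0.15 to 0.12 for the interaction, each with 0 enzymes past the threshold. The Idh3a to Idh3b difference ranged from -0.28 to -0.24 for diet in WT, 0.024 to 0.18 for diet in KO, -0.17 to -0.12 for genotype on normal chow and 0.15 to 0.31 for genotype on high fat diet, the upper ends for KO on high fat diet being without its second sample. With the replicate number as a block the medians were the same by design (-0.31 for genotype averaged over diets), as each group held each replicate number once. With this block 0 enzymes were called, all calls over all genes went from 103 to 40 in that comparison, and Sdhd had an adjusted p of 0.080. Quantile normalization gave 200 calls there and a diet median of 0.03 averaged over genotypes. FPKM without reads leaves the part of counting error in the spread between samples unknown. With 3 samples per group, differences that are small beside that spread can have been missed.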
